A study of Mus musculus with 6 samples.

Results

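The 48 genes described here act in G2 phase and mitosis. They were taken by symbol from a list of cyclins, kinases, checkpoint proteins, kinetochore and spindle components, cytokinesis factors, chromosome proteins and 2 transcription factors, and all 48 were among the 12389 genes of the per-library table. RNA was measured in primary aortic vascular smooth muscle cells grown as explant cultures from mouse thoracic aorta. The knockout (KO) group had 3 libraries, from mice with a smooth muscle-specific deletion of Lrrc8a, which encodes the obligatory subunit of the volume-regulated anion channel, and the wild-type (WT) group had 3. No agent was added, all cultures were kept in DMEM with fetal bovine serum, and passage was at most 6 in both groups. The submitters call the replicates independent biological ones. The sources used here name neither the Cre driver of the deletion nor the strain, age or sex of the mice. Groups follow the sample titles, because the genotype field of the KO samples also reads wild type.

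Expression of this gene set is tied to division. Transcripts of the G2 and mitotic program are kept low in resting cells by the DREAM complex, which holds their promoters through an element called the CHR, and they accumulate in G2 when the MuvB core of that complex joins the transcription factors B-MYB (Mybl2) and FOXM1. CDK1 with cyclin B then drives entry into mitosis, the spindle checkpoint delays anaphase until kinetochores are attached, and the anaphase-promoting complex (APC/C) ends mitosis by marking cyclin B and securin for destruction. Smooth muscle cells of the adult aortic wall seldom divide, and they re-enter the cell cycle when placed in culture with serum.

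Values are scaled reads as deposited, that is, estimated reads of a gene divided by a factor for its library. Lrrc8a (ENSMUSG00000007476, on GRCm38 chromosome 2 at 30237715 to 30263790) was checked first, with 868, 672 and 506 scaled reads in KO replicates 1 to 3, against 2578, 2194 and 1221 in WT replicates 1 to 3. The highest KO value was thus under the lowest WT value, the direction the titles imply, and some signal remained in each KO library. Its log2 fold change, KO over WT on log2(value + 2), was -1.51 (SE 0.34). In limma over all genes its unadjusted p was 0.0029 and its adjusted p 0.999, so this fit did not call the targeted gene. With the replicate number as a block the limma p was 0.00021 and the adjusted p 0.209. The authors' deposited table gives Lrrc8a a log2 ratio of -1.55 and a step-up false discovery rate of 0.0196. The two-sided exact permutation p was 0.1, which is the lowest value this design of 3 against 3 can reach.

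The libraries held an estimated 31.6 to 47.9 M reads in KO and 31.0 to 45.3 M in WT. Defining smooth muscle genes were present but differed widely within each genotype: 8 of 11 such markers are in the table, and their summed scaled reads ran from 31604 to 106600 in KO libraries and from 16665 to 205778 in WT libraries. Acta2, smooth muscle actin, had 18724, 21829 and 59317 scaled reads in KO replicates 1 to 3, against 10651, 13083 and 130984 in WT replicates 1 to 3. Tagln, transgelin, had 10030, 8327 and 40463 in KO, against 2240, 8008 and 58393 in WT. Myh11, smooth muscle myosin heavy chain, chosen after its values were seen, was low in most libraries, with 41.7, 20.8 and 96.8 in KO, against 90.1, 152 and 1656 in WT. Des, Myocd and Mylk were not analysed here. All 6 fibroblast markers are in the table, with sums of 159286 to 211611 in KO and 118365 to 148684 in WT, led by Col1a1 and Dcn. Single fibroblast markers did not all follow these sums: 2 of the 6 had a log2 fold change above 0, and the median was -0.33. Of the endothelial markers 2 of 8 are in the table, with sums of 7276 to 15124 in KO and 177 to 16251 in WT (Eng and Kdr), and of the leukocyte markers 3 of 8, with 392 to 1197 in KO and 1324 to 1594 in WT (Csf1r and Lyz2 among them). Epithelial and mesothelial markers, 5 of 9, had sums of 1098 to 6769 in KO and 5562 to 9936 in WT (Upk3b and Msln among them).

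Most of the promoters that could be examined hold the letters of the CHR. RefSeq promoter windows of GRCm38.p6, which reach from 250 bases before to 50 bases after an annotated start, were matched for 40 of the 48 genes. They were searched on both strands for the CHR in its common form (TTTGAA, or TTCAAA read on the other strand) and for the CCAAT box bound by NF-Y (CCAAT or ATTGG). The windows below are shown as a description, and a link of the motifs to the variation between libraries was not tested. They run from 80 bases before to 30 bases after the start, 5′ to 3′ on the strand of the gene, with every CHR and CCAAT match in capitals. They were chosen as the gene of highest mean value in each role group among those with a CHR inside these bounds, beginning at most 50 bases before the start. No gene of the mitotic kinase or transcription factor groups qualified.
Cdk1 (chr10:69352883-69352992, minus strand): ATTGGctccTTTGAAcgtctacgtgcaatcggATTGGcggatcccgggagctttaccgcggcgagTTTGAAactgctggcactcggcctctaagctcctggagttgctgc
Cdc20 (chr4:118437314-118437423, minus strand): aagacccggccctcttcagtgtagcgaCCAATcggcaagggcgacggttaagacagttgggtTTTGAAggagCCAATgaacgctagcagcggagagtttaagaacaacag
Cdca8 (chr4:124936888-124936997, minus strand): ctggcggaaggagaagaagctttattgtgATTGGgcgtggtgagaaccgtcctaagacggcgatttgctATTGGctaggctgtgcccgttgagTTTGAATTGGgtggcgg
Cenpf (chr1:189688057-189688166, minus strand): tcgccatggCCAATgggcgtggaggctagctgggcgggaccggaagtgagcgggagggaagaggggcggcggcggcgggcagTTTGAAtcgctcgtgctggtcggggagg
Kif11 (chr19:37376302-37376411, plus strand): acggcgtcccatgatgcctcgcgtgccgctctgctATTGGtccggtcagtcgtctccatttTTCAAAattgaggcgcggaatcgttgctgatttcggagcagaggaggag
Hmmr (chr11:40733408-40733517, minus strand): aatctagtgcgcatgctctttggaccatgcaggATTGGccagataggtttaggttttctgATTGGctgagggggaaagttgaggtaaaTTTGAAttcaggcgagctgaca
Anln (chr9:22389177-22389286, minus strand): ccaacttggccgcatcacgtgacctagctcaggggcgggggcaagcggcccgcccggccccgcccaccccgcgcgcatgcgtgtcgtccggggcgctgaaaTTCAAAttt
Top2a (chr11:99024160-99024269, minus strand): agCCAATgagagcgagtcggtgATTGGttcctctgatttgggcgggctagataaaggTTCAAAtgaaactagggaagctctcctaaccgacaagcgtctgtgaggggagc

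A CHR match lay in the window of 30 of the 40 genes (75%), against 20.2% of the 27025 genes with RefSeq windows and 14.1% of the 9043 that are also among the genes tested here. First bases of a match stood within 50 bases of the start in 27 of the 40 (67.5%), against 5.72% of all genes and 3.77% of tested genes. The window of Cdk1 (the mitotic CDK) holds a pair of CHR matches, each preceded by a CCAAT box. That of Cdc20 (the APC/C activator) holds a CHR between CCAAT boxes. In Cdca8 (borealin, of the passenger complex) the last base of the CHR is also the first of a CCAAT match. The CCAAT box was found in 29 of 40 (72.5%), against 41.1% of all genes and 43.6% of tested genes. Both motifs occurred in 25 of 40 (62.5%), against 7.97% of all genes and 5.84% of tested genes. By comparison, the CHR lay in 5 of 31 G1/S and DNA replication genes (16.1%), while the CCAAT box lay in 64.5% of them. Among 83 other mitotic genes outside the 48 the CHR lay in 32 (38.6%), within 50 bases of the start in 27.7%, and both motifs in 30.1%. The CHR was not found in the windows of Ccnb1, Bub1, Mad2l1, Cenpe, Nusap1, Birc5, Melk, Nek2, Mybl2 and Nuf2, which says only that these letters are not in the windows. Ccna2, Aurkb, Kif20a, Tpx2, Incenp, Smc4, Pbk and Foxm1 had no window. A match is a description of the sequence and not evidence of binding in these cells.

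**Figure D1:**
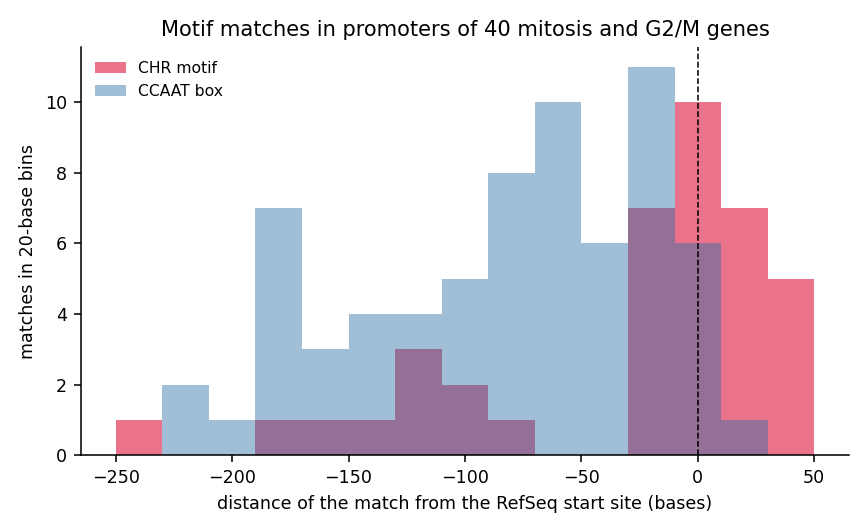
Positions of CHR and CCAAT matches, both strands, in the promoter windows of 40 mitosis and G2/M genes, as matches per 20-base bin (vertical axis) by distance in bases from the RefSeq start (horizontal axis, dashed line at the start). Of 39 CHR matches, with a site in overlapping windows of a gene counted once, 29 lie within 50 bases of the start.

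The 48 genes moved together across the 6 libraries, and replicate number separated the libraries more than genotype did. Their summed values were 19919, 69140 and 145415 scaled reads in KO replicates 1 to 3, against 20038, 38145 and 84043 in WT replicates 1 to 3. Replicate 1 was thus the lowest and replicate 3 the highest in both genotypes, and the largest sum was 7.3 times the smallest. Each of the 48 genes, taken singly, was lowest in replicate 1 and highest in replicate 3 in both genotypes, an order that 10.2% of all tested genes show. In 46 of the 48 both number 1 libraries lay below the other 4, and KO replicate 3 was the highest of the 6 libraries for all 48. KO replicate 2 lay between WT replicates 2 and 3 for 41 genes and above WT replicate 3 for 6. In bulk RNA, fewer dividing cells and less of these transcripts per dividing cell cannot be told apart.

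**Figure D2:**
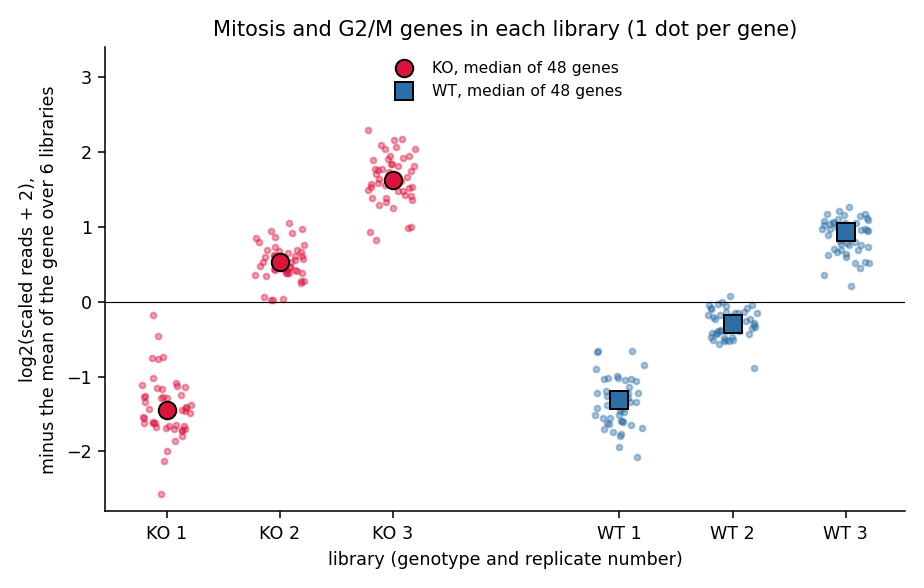
Each dot is 1 of the 48 genes in 1 library, as log2(scaled reads + 2) minus the mean of that gene over the 6 libraries (vertical axis), for KO and then WT replicates 1 to 3 (horizontal axis), and large markers are medians of the 48 genes. The medians were -1.44, 0.53 and 1.63 in KO replicates 1 to 3, and -1.31, -0.30 and 0.94 in WT replicates 1 to 3.

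The range between replicates of 1 genotype was wide. The median gene was 8.69 times higher in replicate 3 than in replicate 1 within KO and 4.91 times within WT, where the median over all tested genes was 0.996 in KO and 1.0 in WT. Within KO this ratio ran from 2.23 for Anln, the cytokinetic ring scaffold anillin, to 29.4 for Cenpf, a kinetochore-associated protein of the nuclear matrix. Within WT it ran from 1.85 for Smc4, a condensin core subunit, to 8.96 for Pbk, a mitotic protein kinase. The residual SD between libraries of 1 genotype had a median of 1.39 on the log2 scale (0.59 to 1.87), against 0.36 over all genes, and all 48 genes lay above that all-gene median. Of all tested genes, 94.2% had a lower residual SD than the median member.

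**Figure D3:**
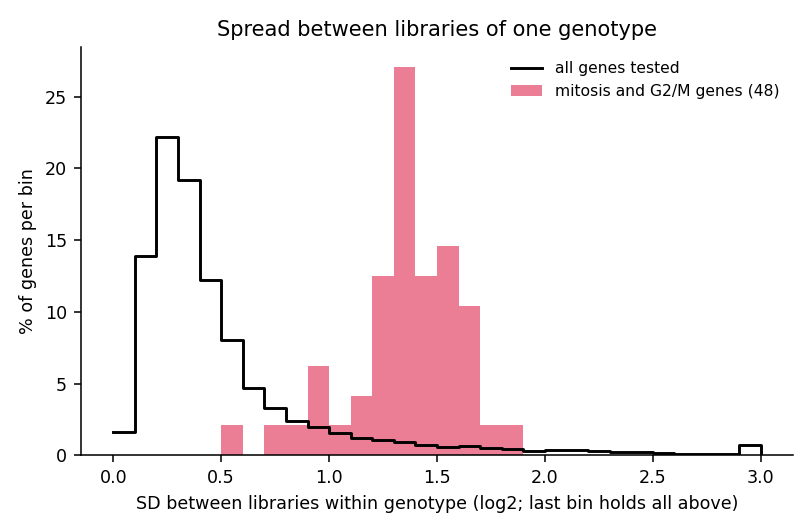
Distribution of the SD between libraries within genotype (log2 scale, horizontal axis, bins of 0.1, the last holding all higher values) as a percentage of genes per bin (vertical axis), for the 48 mitosis and G2/M genes (bars) and all 12363 genes tested (line). The members centre on 1.39 and all genes on 0.36.

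Other measures of the libraries moved with replicate number as well. Mitochondrial transcripts made up 6.41%, 4.24% and 2.37% of the values in KO replicates 1 to 3, and 7.13%, 4.95% and 1.82% in WT replicates 1 to 3. Estimated depth was 35.9, 31.6 and 47.9 M reads in KO and 33.1, 31.0 and 45.3 M in WT. The summed smooth muscle markers, Acta2, Tagln and Myh11 were also highest in replicate 3 of each genotype. Of the 8 smooth muscle markers tested, 2 were lowest in replicate 1 and highest in replicate 3 in both genotypes. The part of these measures in the pattern was not tested. No label says what a replicate number marks. Each gene was well above the filter on low values (at least 10 in at least 3 libraries): all 48 passed, and the lowest value in any library was 58.1.

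With regard to genotype, none of the 48 genes passed the test between KO and WT. In the limma fit over 12363 genes, 0 of 48 had an adjusted p under 0.05 in either direction, where the background was 0% of all genes, and 0 of 48 had an unadjusted p under 0.05, where the background was 3.62%. The adjusted p was 0.999 for all 48. Every one of the 48 log2 fold changes was above 0, from 0.03 for Nek2 to 0.98 for Prc1, with a median of 0.52 (1.44-fold), against 50.4% above 0 and a median of 0.00 over all genes. As the genes vary together, the 48 signs are not 48 separate observations. The standard errors had a median of 0.91 with genotype alone, wider than the median fold change, and of 0.27 with the replicate number as a block, narrower than it. The KO and WT libraries overlapped for every gene, so that 0 of 48 had groups apart, against 8.43% of all genes.

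By the authors' deposited table, none (0 of 48) had a false discovery rate (FDR) under 0.05, against 0.525% of its genes, and the smallest p was 0.106. The log2 ratios of the authors' deposited table ran from 0.18 to 1.14 with a median of 0.69, all above 0. The median limma fold change rested on single libraries: it was -0.15 without KO replicate 3 and -0.05 without WT replicate 1, and 1.32 without KO replicate 1 and 1.02 without WT replicate 3.

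**Figure D4:**
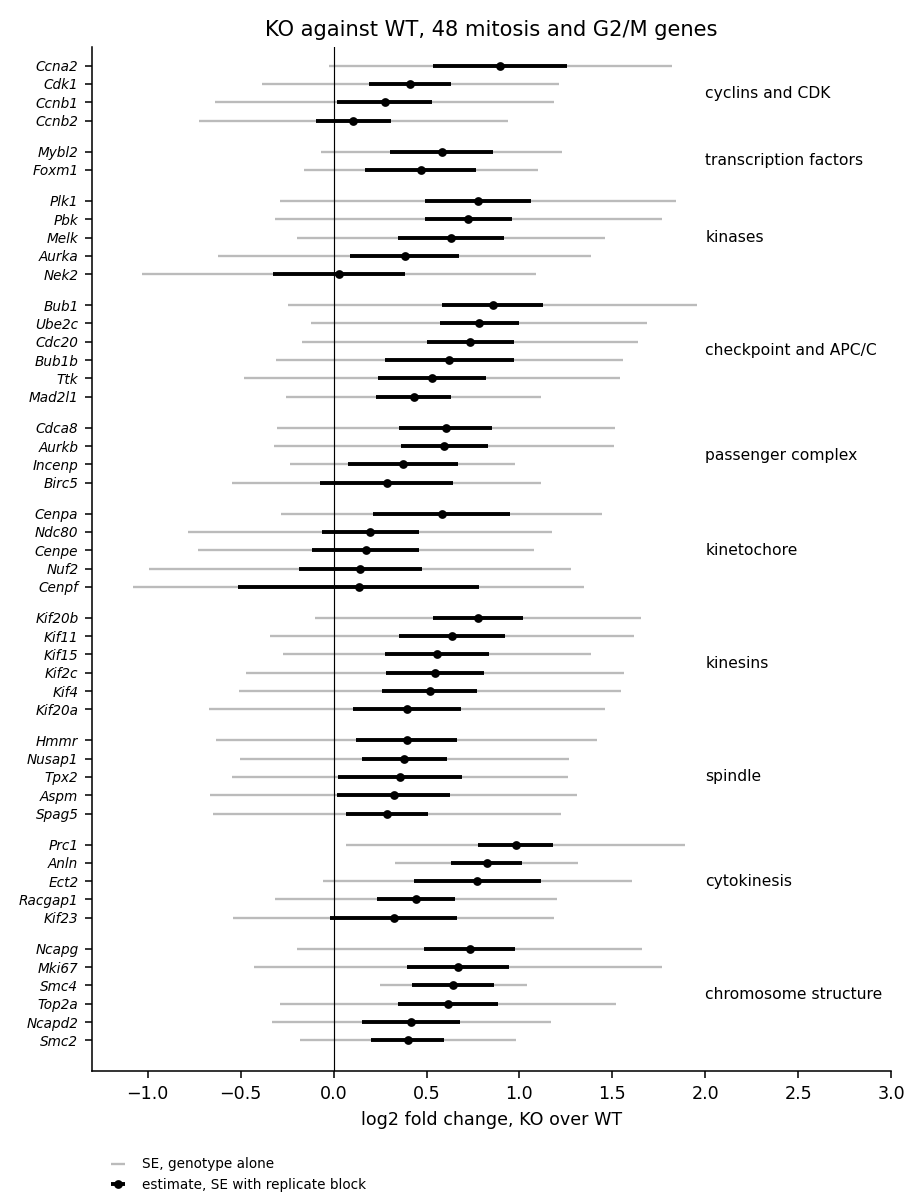
Log2 fold change, KO over WT (horizontal axis), of the 48 genes by role (vertical axis); grey bars are SE with genotype alone and black bars SE with the replicate number as a block. All points lie above 0, between 0.03 and 0.98, and the median SE is 0.91 without and 0.27 with the block.

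Set against the library of the same number, the difference appeared in replicates 2 and 3. The median log2 difference, KO minus WT, was -0.08 for replicate 1, 0.80 for replicate 2 and 0.80 for replicate 3, with all-gene medians of 0.01, -0.00 and 0.01. KO was above WT for 18 of 48 genes in replicate 1 (background 50.6%), for 47 in replicate 2 (49.9%) and for 48 in replicate 3 (50.6%). In replicate 1 the differences ranged from -1.66 for Cenpf to 1.06 for Anln. KO exceeded WT in all 3 replicate numbers for 18 of 48 genes, against 15.7% of all genes. They were Prc1, Plk1, Aurkb, Bub1, Mad2l1, Ttk, Kif20b, Anln, Cdc20, Cdca8, Ncapg, Smc2, Smc4, Ube2c, Pbk, Melk, Racgap1 and Mybl2.

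With replicate number as a block, the residual SD of the median member was 0.39, against 0.26 over all genes, and again 0 of 48 passed, where 0% of all genes did. The smallest adjusted p among members was 0.373, for Prc1. Unadjusted p was under 0.05 for 11 of 48, all higher in KO, against 7.42% of all genes in either direction and 3.17% in that one. As the genes vary together, these 11 are not 11 separate observations. Those 11 were Prc1 (0.00318), Anln (0.00556), Ube2c (0.0107), Kif20b (0.0189), Bub1 (0.0204), Cdc20 (0.021), Pbk (0.0225), Ncapg (0.0245), Smc4 (0.0281), Plk1 (0.0356) and Aurkb (0.0454).

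**Figure D5:**
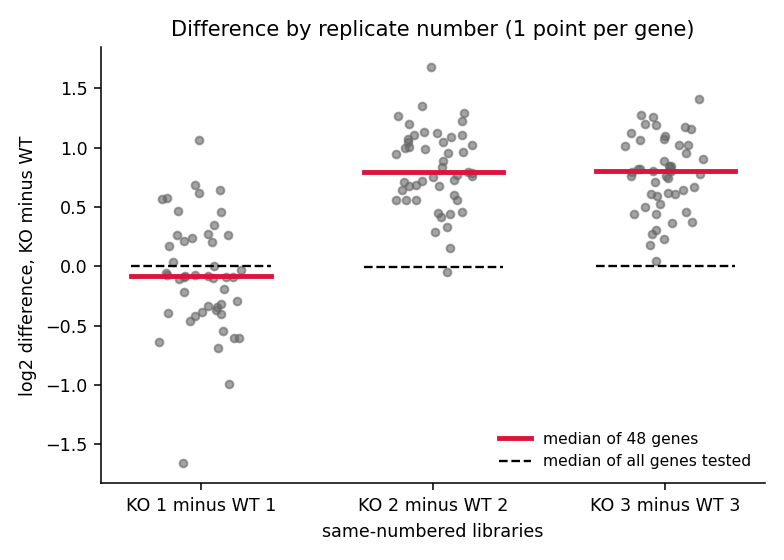
Log2 difference, KO minus WT, between libraries of the same replicate number (vertical axis) for each of the 48 genes (points), with the median of the 48 (red) and of all genes tested (dashed). The median is -0.08 for number 1 and 0.80 for numbers 2 and 3.

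The transcription factors that drive the program followed it at a smaller amplitude. Foxm1, the forkhead activator of G2/M genes (chromosome 6, 128362967 to 128376146), had 673, 1795 and 3458 scaled reads in KO replicates 1 to 3, against 869, 926 and 1957 in WT replicates 1 to 3. Mybl2, or B-MYB (chromosome 2, 163054687 to 163084688), had 132, 271 and 597 in KO, against 110, 164 and 351 in WT. KO replicates 2 and 3 stood above the WT library of the same number for both genes, and replicate 1 was below WT for Foxm1 alone. The log2 fold changes were 0.47 (SE 0.63) for Foxm1 and 0.58 (SE 0.65) for Mybl2. The median ratio of replicate 3 to replicate 1 for the pair was 4.82 in KO and 2.72 in WT.

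Among the cyclins and their kinase, Cdk1, the CDK of mitotic entry (chromosome 10, 69335146 to 69352938), had 507, 1615 and 3553 scaled reads in KO replicates 1 to 3, against 532, 1095 and 2114 in WT replicates 1 to 3. Ccna2, cyclin A2, which acts in S phase and at mitotic entry, had 326, 1467 and 3159 in KO, against 347, 457 and 1472 in WT. Ccnb1, cyclin B1, had 241, 1246 and 2025 in KO, against 304, 759 and 1489 in WT. In all 3 genes KO replicate 1 was somewhat below WT replicate 1, and KO replicates 2 and 3 were above their WT counterparts. Ccna2 had the largest difference in replicate 2 of any member, 1.68 on the log2 scale. The log2 fold changes over the groups were 0.90 (SE 0.92) for Ccna2, 0.41 (SE 0.80) for Cdk1, 0.27 (SE 0.91) for Ccnb1 and 0.11 (SE 0.83) for Ccnb2, cyclin B2, and 0 of the 4 genes had KO higher in all 3 replicate numbers.

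The 5 mitotic kinases spanned the widest replicate range of any role group in KO, with a median ratio of replicate 3 to replicate 1 of 12.6 in KO and 5.95 in WT. Plk1, polo-like kinase 1, which acts in spindle assembly and cytokinesis (chromosome 7, 122159439 to 122169873), had 196, 926 and 2718 scaled reads in KO, against 191, 430 and 1188 in WT. Aurka, the centrosomal Aurora kinase, had 201, 611 and 2543 in KO, against 251, 446 and 1259 in WT. Nek2, a centrosome separation kinase (chromosome 1, 191821444 to 191833050), had 154, 871 and 2400 in KO, against 308, 642 and 1537 in WT. Nek2 was lower in KO in replicate 1 and higher in replicates 2 and 3, and its log2 fold change of 0.03 (SE 1.06) was the smallest of the 48. Plk1 had 0.78 (SE 1.07) and Aurka 0.38 (SE 1.0). Pbk and Melk, 2 further kinases of proliferating cells, had 0.73 (SE 1.04) and 0.63 (SE 0.83).

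Spindle checkpoint and APC/C genes had the highest median difference in replicate 1, 0.37 on the log2 scale, and 5 of the 6 had KO above WT in all 3 replicate numbers. Cdc20, the APC/C activator that the checkpoint inhibits (chromosome 4, 118432901 to 118437352), had 416, 1548 and 2560 scaled reads in KO replicates 1 to 3, against 280, 643 and 1979 in WT replicates 1 to 3. Mad2l1, the checkpoint protein MAD2, had 728, 1586 and 2431 in KO, against 452, 1075 and 2355 in WT. Bub1b, the checkpoint protein BUBR1, had 321, 1553 and 3648 in KO, against 420, 735 and 1611 in WT, and was the exception, with KO replicate 1 below WT replicate 1. For Mad2l1 the replicate 3 libraries differed little, by 0.05 on the log2 scale, and its ratio of replicate 3 to replicate 1 was 3.34 in KO and 5.21 in WT. Ube2c, the ubiquitin-conjugating enzyme that works with the APC/C, had a log2 fold change of 0.78 (SE 0.91), Bub1, a checkpoint kinase, 0.86 (SE 1.10) and Ttk, the kinase MPS1, 0.53 (SE 1.01).

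The chromosomal passenger complex places Aurora B at centromeres and later at the midzone. Incenp, its scaffold, had 812, 2375 and 4198 scaled reads in KO replicates 1 to 3, against 1115, 1483 and 2261 in WT replicates 1 to 3. Aurkb, its kinase, had 208, 874 and 1629 in KO, against 184, 438 and 1060 in WT. Birc5, survivin, had 188, 797 and 1484 in KO, against 305, 385 and 1050 in WT. Subunits of this 1 complex thus differed in replicate 1, where Aurkb and Cdca8 were higher in KO (0.17 and 0.58 on the log2 scale) and Incenp and Birc5 lower (-0.46 and -0.69). Their log2 fold changes were 0.37 (SE 0.61) for Incenp, 0.60 (SE 0.91) for Aurkb, 0.29 (SE 0.83) for Birc5 and 0.60 (SE 0.91) for Cdca8.

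The 5 genes of the kinetochore role had the smallest median log2 fold change of any role group, 0.17, and the lowest median in replicate 1, -0.54. The 37 further kinetochore and centromere genes outside the 48 did not share this, with medians of 0.40 and 0.04. Cenpf (chromosome 1, 189640606 to 189688086) had 129, 1078 and 3806 scaled reads in KO replicates 1 to 3, against 414, 619 and 1584 in WT replicates 1 to 3. Its KO range held both the lowest and the highest of its 6 values, and its log2 fold change was 0.13 (SE 1.21). Cenpe, the kinetochore kinesin CENP-E, had 273, 1138 and 2521 in KO, against 415, 712 and 1851 in WT. Nuf2, a subunit of the NDC80 complex that holds microtubules, had 134, 551 and 2456 in KO, against 196, 571 and 1208 in WT, the only one of the 48 with KO replicate 2 below WT replicate 2. Ndc80 itself had a log2 fold change of 0.20 (SE 0.98), close to its partner Nuf2 with 0.14 (SE 1.14). Cenpa, the centromeric histone H3 variant, had 0.58 (SE 0.86).

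Of the kinesin motors, Kif20a (MKLP2, which acts in cytokinesis) had 644, 3115 and 9658 scaled reads in KO replicates 1 to 3, against 818, 2265 and 4597 in WT replicates 1 to 3. Per kb of exon Kif20a had the highest mean level of the 48, 811 scaled reads per kb, where the median member had 218 and Kif15, a spindle kinesin, the lowest at 43.7. Kif11, the bipolar spindle motor Eg5, had 310, 2084 and 3006 in KO, against 332, 903 and 1720 in WT. Kif20b, a motor of the late midzone, had 357, 1312 and 3036 in KO, against 308, 657 and 1393 in WT, and it alone of the 6 motors had KO above WT in all 3 numbers. Log2 fold changes ran from 0.40 (SE 1.07) for Kif20a to 0.78 (SE 0.88) for Kif20b, with Kif2c, a microtubule depolymerase, at 0.55 (SE 1.02) and Kif4, a chromosome-bound motor, at 0.52 (SE 1.03).

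Spindle microtubule factors showed a median log2 fold change of 0.36, and 0 of 5 had KO above WT in all 3 numbers. Tpx2, which activates Aurora A and nucleates microtubules, had 667, 2821 and 7030 scaled reads in KO replicates 1 to 3, against 1015, 1657 and 3743 in WT replicates 1 to 3. Hmmr, a spindle pole protein and hyaluronan receptor, had 290, 1544 and 3002 in KO, against 337, 758 and 2327 in WT. Aspm, a spindle pole organiser, had 219, 710 and 2789 in KO, against 288, 579 and 1331 in WT. In each, KO replicate 1 was the lowest of the 6 libraries and KO replicate 3 the highest. The remaining 2, Nusap1 and Spag5, had log2 fold changes of 0.38 (SE 0.89) and 0.29 (SE 0.94).

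Cytokinesis genes had the highest median log2 fold change of any role group, 0.77. Prc1, which crosslinks midzone microtubules (chromosome 7, 80294450 to 80316259), had 533, 2181 and 4130 scaled reads in KO replicates 1 to 3, against 346, 887 and 2034 in WT replicates 1 to 3. Its group values were 2281 ± 1801 in KO and 1089 ± 862 in WT (SD, n = 3 each). The fold change on the log2 scale was 0.98 with an SE of 0.91, or of 0.20 with the block. KO was higher in each number, by 0.62, 1.30 and 1.02 on the log2 scale. Anln (chromosome 9, 22332012 to 22389188) had 2536, 3826 and 5655 in KO, against 1213, 1983 and 4106 in WT, or 4005 ± 1567 in KO and 2434 ± 1498 in WT (SD, n = 3 each). Anln had the smallest unadjusted p of the 48, 0.138 (limma, adjusted p = 0.999), with a log2 fold change of 0.82 (SE 0.49). Its KO replicate 1 was above WT replicates 1 and 2, unlike the rest of the group. Racgap1, the GTPase-activating subunit of centralspindlin, had 699, 2436 and 4263 in KO, against 696, 1651 and 2517 in WT. Kif23, its motor partner, had a log2 fold change of 0.32 (SE 0.86) and Ect2, the RhoA exchange factor they recruit, 0.77 (SE 0.83).

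Genes of chromosome structure included the proliferation markers Mki67 and Top2a. Mki67, which encodes the Ki-67 antigen that coats mitotic chromosomes (chromosome 7, 135689784 to 135716361), had 707, 4423 and 9529 scaled reads in KO replicates 1 to 3, against 736, 1887 and 5332 in WT replicates 1 to 3. Top2a, topoisomerase II alpha, which untangles sister chromatids, had 1032, 4472 and 9233 in KO, against 1112, 2036 and 5230 in WT. Replicate 1 values were near equal in KO and WT for both genes, and KO replicate 2 lay between WT replicates 2 and 3. The log2 fold changes were 0.67 (SE 1.10) for Mki67 and 0.62 (SE 0.90) for Top2a, each with an SE of 0.27 with the block. Of the condensin genes, which compact chromosomes, Smc4 had 1685, 3526 and 4126 in KO, against 1460, 1631 and 2695 in WT, and a log2 fold change of 0.64 (SE 0.40), and it had the lowest residual SD of the 48, 0.59. Ncapd2 had 862, 2778 and 5892 in KO, against 1054, 1722 and 3267 in WT. Smc2 and Ncapg had log2 fold changes of 0.40 (SE 0.58) and 0.73 (SE 0.93).

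Lists of related genes outside the 48 gave 0 calls in either direction. For the 16 genes that control mitotic entry the median log2 fold change was 0.36, 13 were above 0 and the residual SD was smaller, 0.57, with 8 of 16 in the replicate order described. Among them Cdc25b, the phosphatase that activates CDK1, had 948, 1216 and 1589 scaled reads in KO replicates 1 to 3, against 642, 956 and 983 in WT replicates 1 to 3, a log2 fold change of 0.53 (SE 0.28). Wee1, the kinase that restrains CDK1, had 349, 818 and 1083 in KO, against 326, 398 and 640 in WT, a log2 fold change of 0.63 (SE 0.47). Mnat1 had the smallest unadjusted limma p of the 16, 0.061, with a log2 fold change of 0.49 (SE 0.22). A further 45 spindle and cytokinesis genes had a median of 0.34 with 37 above 0, and 37 further kinetochore and centromere genes 0.40 with 30 above 0. Both signs occurred among the genes of smallest p there. In the spindle list Clasp2, a microtubule plus-end protein, had -0.67 (SE 0.35), Numa1 0.35 (SE 0.21) and Pttg1 -0.44 (SE 0.28). In the kinetochore list Zwint, a kinetochore protein, had -0.55 (SE 0.33), Mad1l1 0.49 (SE 0.30) and Ska2 0.38 (SE 0.25).

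G1/S and DNA replication genes shared the pattern at lower amplitude, with a median log2 fold change of 0.46 over 37 genes, 34 of them above 0, a residual SD of 0.98 and 29 of 37 in the replicate order described. Their summed values were 23390, 49251 and 86069 scaled reads in KO replicates 1 to 3, against 23896, 31423 and 57919 in WT replicates 1 to 3, and their medians by replicate number were -0.06, 0.71 and 0.66. The 8 G1 cyclins and their kinases did not follow it, with 0 of 8 in that order and a median of 0.10. Housekeeping genes had a residual SD of 0.31.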

How the data were processed

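RNA of 3 KO and 3 WT cultures was sequenced as stranded poly(A) paired-end libraries, per the labels' protocols. The submitters' processing notes name STAR, Partek, DESeq2, GRCm39 and mm39 with no roles or versions, and strand use in counting is not given in the sources used here. Coordinates in the authors' deposited comparison table match GRCm38: of 12385 IDs in GENCODE M21, 12341 have the same start, and ends are printed 1 base before the deposited stop. The deposited per-library values are a scaled signal and not raw counts, although 1 table bears a raw count name. From low values, 1 read was worth 0.712 to 1.157 in KO and 0.792 to 1.186 in WT, and 83.0% to 92.8% of values up to 50 reads were whole within 0.05 reads, too few to recover reads. The authors' deposited table gives p-values with step-up FDR, a log2 ratio, a linear ratio, mean signals and a signed fold change score, KO over WT.

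The test was limma 3.58.1 (R 4.3.3, statmod 1.5.0) on log2(value + 2), as planned for scaled values. A count test was planned only if the values proved to be raw counts. The fit took 12363 genes with at least 10 in at least 3 libraries (26 left out). It used genotype alone, trend and robust variance moderation, two-sided p-values and Benjamini-Hochberg over all genes, threshold 0.05. Fold changes understate the change of low genes. The script was tested on simulated data. Deviations from group means correlated between same-numbered libraries across genes (0.433, 0.151 and 0.389 for numbers 1 to 3). Other pairs of KO and WT gave -0.403 to 0.0223. Deviations cancel within each genotype, so the values of other pairs are not independent of the same-numbered ones. As the same-numbered values were all above 0.1, differences by number and a fit with the number as a block are also given. The main fit, with its calls and the SE printed unless the block is named, did not use the pairing. The labels do not say what a number marks. The 48 genes, the other lists, the roles and the tests were chosen with earlier results of these data known. Values by library are given for the 3 genes of highest mean value in each role, the 3 smallest p and the extremes of fold change. Genes shown from each other list are among its 3 of smallest p, and not all of these are printed. The 2 highest stand for each marker list. Promoter sequences are RefSeq's, GRCm38.p6. Alternatives were other pseudocounts, filters, scalings, the other per-library table, prior settings, library weights, the replicate block and leaving libraries out.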

Additional observations from a re-analysis of the deposited data

How the results depend on the processing

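Results were recomputed under 21 other settings, of which leaving out both libraries of a replicate number was chosen after the data were seen. Other pseudocounts, filters, scalings, the other per-library table and the prior settings kept every call and direction, with the median log2 fold change of the 48 genes between 0.51 and 0.56. The replicate block called 0 of 48 and 0 of all genes, with 917 genes (11 of the 48) at an unadjusted p under 0.05 against 447 (0 of 48) without it, and with TMM-like scaling as well the counts were 0, 917 and 11. Pairing changed no call. With library quality weights 30 genes passed over all genes (6 higher, 24 lower), none of the 48 among them, Lrrc8a passed with -1.62 (adjusted p = 0.045), and Nek2 (-0.11) and Nuf2 (-0.36) changed sign. Leaving out 1 library or number, 0 to 1 genes passed (1 without KO replicate 1). The members' median ran from -0.15 to 1.32, that of entry control genes from -0.015 to 0.72, of other spindle genes from -0.16 to 0.83, of other kinetochore genes from -0.021 to 0.91, of MuvB and DREAM genes from -0.075 to 0.16 and of G1/S genes from -0.048 to 0.94. Of all 48 members, 16 were above 0 without KO replicate 3, 21 without WT replicate 1, 45 without KO replicate 2, 47 without WT replicate 2, 44 without number 2, 43 without number 3 and 44 with the weights, and 48 in the other settings. Of 57 genes named by rule, 30 of them members, 22 changed sign in some setting, all of them members, with ranges over left-out libraries of -0.62 to 1.21 for Aspm, -0.57 to 1.26 for Aurka, -0.047 to 1.43 for Aurkb, -0.36 to 1.12 for Birc5, -0.16 to 1.58 for Bub1b, -0.35 to 1.18 for Ccnb1, -0.24 to 1.16 for Cdk1, -0.55 to 1.05 for Cenpe, -0.98 to 1.45 for Cenpf, -0.082 to 1.10 for Foxm1, -0.33 to 1.35 for Hmmr, -0.16 to 1.02 for Incenp, -0.53 to 1.42 for Kif20a, -0.17 to 1.02 for Mad2l1, -0.14 to 1.73 for Mki67, -0.23 to 1.16 for Ncapd2, -0.87 to 1.10 for Nek2, -0.91 to 1.18 for Nuf2, -0.11 to 1.78 for Plk1, -0.13 to 1.18 for Racgap1, -0.085 to 1.49 for Top2a and -0.43 to 1.27 for Tpx2. The cause was not tested. Without both libraries of a number the members' median was 0.78 (number 1), 0.36 (number 2) and 0.39 (number 3).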

Other observations

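Several neighbours of the mitotic program in the cell cycle did not share its spread between replicates. For the 16 subunits of the APC/C the median log2 fold change was 0.05, with 10 above 0 and a residual SD of 0.24, and 2 of 16 were lowest in replicate 1 and highest in replicate 3 in both genotypes. The 12 MuvB, DREAM and pocket protein genes had a median of 0.07, a residual SD of 0.28 and 3 of 12 in that order, although Rbl1, the pocket protein p107, had 0.62 (SE 0.46). Cohesin and other condensin genes had a median of 0.20 over 17 genes. Among them Pds5b, a cohesin regulator, had 2261, 1883 and 2765 scaled reads in KO replicates 1 to 3, against 1470, 1147 and 1024 in WT replicates 1 to 3, with the groups apart and a log2 fold change of 0.92 (SE 0.23, limma adjusted p = 0.999).

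Over the 12 tested CDK inhibitors and p53 targets the median log2 fold change was 0.05, 6 were above 0, and 0 passed. Cdkn2a, the locus of p16 and ARF, whose products share reads that the values do not divide, had 5406, 5032 and 4583 scaled reads in KO, against 2805, 3552 and 1835 in WT. All 3 KO libraries were above all 3 WT libraries, with a log2 fold change of 0.92 (SE 0.27) and an unadjusted p of 0.0106 (limma, adjusted p = 0.999). Gadd45a, a stress-induced growth arrest gene, had 912, 2195 and 1499 in KO, against 2136, 4835 and 2536 in WT, a log2 fold change of -1.04 (SE 0.42, adjusted p = 0.999).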
